A study of Mus musculus with 8 samples.

Results

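Vwa8 encodes a mitochondrial ATPase of the AAA+ class, and it was examined here together with 9 other nuclear genes for AAA+ proteins of the mitochondrion, namely Atad1, Atad3a, Afg3l1, Afg3l2, Spg7, Yme1l1, Lonp1, Clpx and Bcs1l. The 10 genes were taken by name from 22180 genes that had a probe set with a single gene symbol, and each had exactly 1 such probe set. The cells were AML12, a hepatocyte line from the liver of a mouse carrying a transgene for human TGF-alpha, cultured in medium with 10% serum, insulin and transferrin at 0.005 mg/ml each, selenium at 5 ng/ml and the synthetic glucocorticoid dexamethasone at 40 ng/ml. The study compared 4 cultures of wild-type AML12 cells with 4 cultures of VWA8-null AML12 cells, in which CRISPR/Cas9 had removed the gene, and asked which transcripts differ when VWA8 is absent. Cells of both genotypes were differentiated, and the RNA of each culture went to 1 Affymetrix mouse array. The number of clones behind the knockout cultures is not stated in the labels, so clonal differences and the deletion itself cannot be told apart.

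AAA+ proteins assemble into rings, often of identical or related subunits, and use ATP hydrolysis to pull on, unfold or remodel other proteins. In mitochondria several of them are joined to a protease and decide which proteins are kept, matured or degraded, while others extract proteins from a membrane or complete the assembly of a respiratory complex. VWA8 carries a von Willebrand factor A domain beside its ATPase modules, an arrangement it shares with midasin, the ribosome assembly factor encoded by Mdn1. Liver cells are rich in mitochondria and rely on these systems for the turnover of respiratory chain proteins and of matrix enzymes.

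The sequences upstream of the genes are shown first, so that those of members whose transcripts differed between genotypes can be read beside those of members whose transcripts did not pass the test. RefSeq start regions of assembly GRCm38.p6 were found for 8 of the 10 members. The following runs, in the direction of transcription, are the bases of these windows upstream of the outermost annotated start of the gene, and capitals mark a match to one of 5 motifs searched on both strands.
Vwa8 (chr14:78848928-78849057, plus strand): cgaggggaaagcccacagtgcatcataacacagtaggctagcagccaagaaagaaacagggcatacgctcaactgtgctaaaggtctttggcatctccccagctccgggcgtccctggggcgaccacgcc
Bcs1l (chr1:74588039-74588288, plus strand): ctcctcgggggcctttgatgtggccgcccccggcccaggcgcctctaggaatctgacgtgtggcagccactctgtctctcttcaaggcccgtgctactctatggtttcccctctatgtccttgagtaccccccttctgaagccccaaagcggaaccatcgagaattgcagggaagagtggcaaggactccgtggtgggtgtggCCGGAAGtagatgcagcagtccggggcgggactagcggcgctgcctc
Clpx (chr9:65294010-65294250, plus strand): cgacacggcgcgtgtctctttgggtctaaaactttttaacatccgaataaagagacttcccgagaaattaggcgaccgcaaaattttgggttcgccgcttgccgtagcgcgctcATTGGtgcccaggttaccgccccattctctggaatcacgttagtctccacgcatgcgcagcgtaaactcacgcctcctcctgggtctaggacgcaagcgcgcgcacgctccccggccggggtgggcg
Lonp1 (chr17:56626904-56627153, minus strand): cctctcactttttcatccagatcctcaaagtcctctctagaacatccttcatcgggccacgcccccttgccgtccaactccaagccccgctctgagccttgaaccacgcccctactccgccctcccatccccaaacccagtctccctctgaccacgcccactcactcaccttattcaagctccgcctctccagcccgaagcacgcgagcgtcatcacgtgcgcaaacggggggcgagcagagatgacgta
Afg3l1 (chr8:123477612-123477861, plus strand): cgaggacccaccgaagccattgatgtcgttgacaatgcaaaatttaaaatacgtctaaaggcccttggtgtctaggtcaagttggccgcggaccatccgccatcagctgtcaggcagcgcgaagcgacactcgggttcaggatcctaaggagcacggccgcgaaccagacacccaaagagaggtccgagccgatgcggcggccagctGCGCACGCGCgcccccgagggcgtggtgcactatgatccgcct
Spg7 (chr8:123065258-123065507, plus strand): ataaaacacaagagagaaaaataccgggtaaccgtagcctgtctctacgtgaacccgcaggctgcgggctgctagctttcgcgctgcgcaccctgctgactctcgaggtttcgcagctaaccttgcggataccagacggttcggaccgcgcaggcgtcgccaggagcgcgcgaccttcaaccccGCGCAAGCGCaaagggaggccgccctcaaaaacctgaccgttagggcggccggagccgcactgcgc
The capitals are an ETS core (CCGGAAG) in Bcs1l, a CCAAT box read on the opposite strand in Clpx, and an NRF1 element (GCGC and TGCGC with any base between) read on the opposite strand in Afg3l1 and in Spg7. The windows of 250 bases held the NRF1 element in 2 of 8 member promoters and in 3.74% of all 32851 promoters, the ETS core in 3 of 8 (Atad1, Bcs1l and Yme1l1) and in 6.91%, and the CCAAT box in 2 of 8 (Clpx and Yme1l1) and in 33.8%. The windows of Atad1 and Yme1l1 held no base upstream of the outermost annotated start. No run is therefore printed for them, and their matches lie downstream of that start. The upstream runs of Vwa8 and Clpx hold 130 and 241 bases, and the other printed runs 250. No member window held the CREB element TGACGTCA, present in 1.55% of all promoters, or the composite CHOP and ATF4 element TGATGNAAT, present in 0.816%. Each run printed here holds at most 1 match, so no matches overlap in them.

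Vwa8 was far lower in every knockout culture. On the deposited log2 scale the wild-type arrays read 8.95, 9.01, 8.91 and 8.95, and the knockout arrays read 5.12, 5.22, 5.07 and 5.33. All 4 knockout arrays lay more than 3 log2 units below all 4 wild-type arrays, which accords with the labels. The means were 8.95 ± 0.041 (SD, n = 4) and 5.18 ± 0.116 (n = 4), a log2 fold change of -3.77 ± 0.070 (SE, 95% interval -3.93 to -3.61), or 13.6-fold. Limma, a linear model fitted across all genes with variances shared between them, gave an adjusted p of 4.84e-08, and the exact permutation test gave p = 0.0286, two-sided, the smallest that 70 arrangements of 4 against 4 arrays allow. Among all 22180 genes only Serpinb9b had a larger fall. Which part of the transcript the probe set reads is not stated in the labels, and an array value has no true zero, so the remaining signal of 5.18, above the array medians of 4.27 to 4.33, gives no level of remaining transcript. In RNA of whole cultures, fewer cells with a transcript and less transcript per cell cannot be told apart. The genes with the profile most like that of Vwa8 over the 8 arrays, by the root mean square difference of values centred on the gene mean, were Serpinb9b at 0.173, Osmr at 0.544, Mki67 at 0.592, Ccl2 at 0.631 and Cd109 at 0.683 log2 units, and this measure ranks genes chiefly by the size of their fall.

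Among the 9 other members, 4 rose and 1 fell, and all of these changes were smaller than 1.5-fold. Bcs1l, Clpx, Afg3l2 and Yme1l1 were higher in the knockout, Lonp1 was lower, and Atad1, Atad3a, Afg3l1 and Spg7 did not pass. These 5 of 9 passed an adjusted p of 0.05 in limma, against 20.9% of all genes, 10.4% in each direction. With Vwa8, the deleted gene itself, 6 of 10 members passed. The same 6 members, or 5 of 9 without Vwa8, were those whose 2 groups of arrays did not overlap, which was so for 26.1% of all genes. The median log2 fold change was 0.07 over the 10 members, 0.14 over the 9 without Vwa8, and -0.003 over all genes. A change at least as large as that of Yme1l1, the smallest among the members that passed, was seen in 22.2% of all genes. The members had wild-type means of 6.72 or more, against array medians of 4.27 to 4.33. Without the dimmest 50% of probe sets 2707 genes passed as higher and 2742 as lower. Over all genes 2314 and 2312 did, although more genes were tested. The share that passed among genes as bright as the members was not computed, nor was it for the lists below. With the median change of neighbouring genes along the chromosome subtracted, 4 of 10 members passed, against 20.2% of 21964 genes. They were Clpx and Afg3l2, which were higher, and Vwa8 and Lonp1, which were lower. This median came from the same arrays and was subtracted from the knockout values as if known exactly. Its own error is therefore not in any SE or p-value given after the subtraction.

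**Figure D1:**
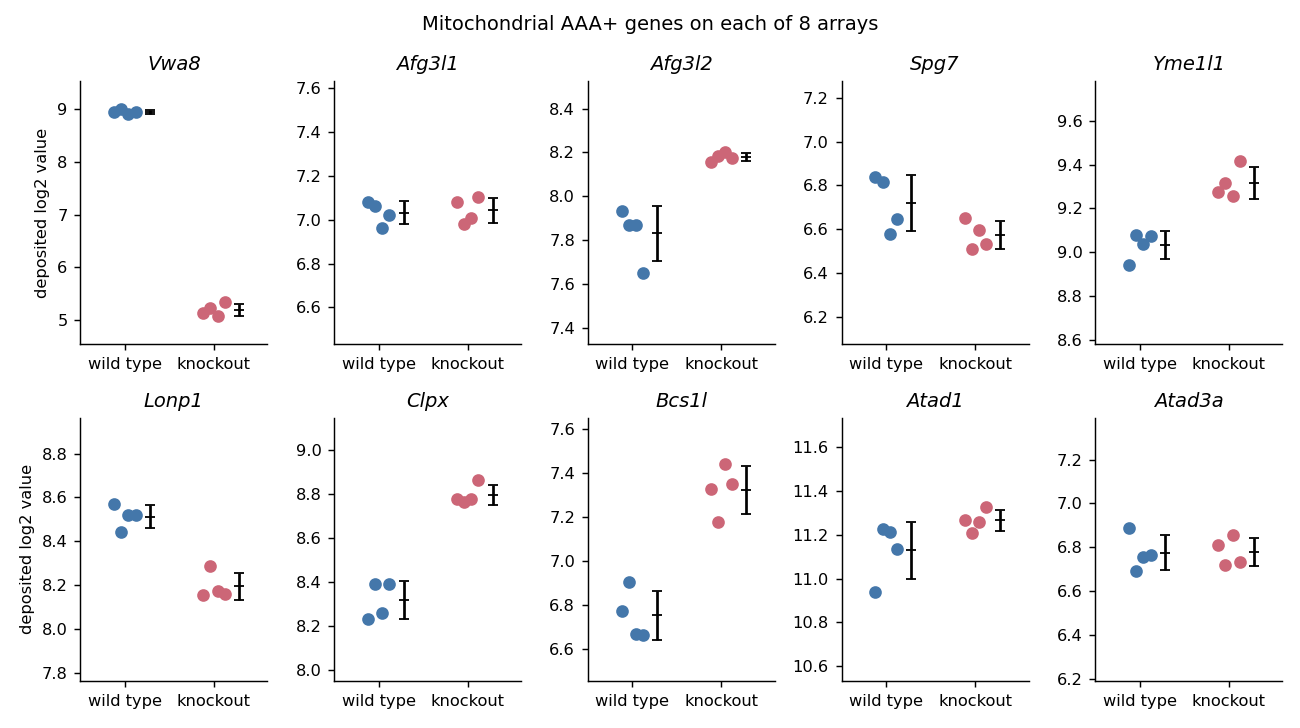
Deposited log2 values of the 10 genes on each array, with 4 wild-type (blue) and 4 knockout (red) cultures and the mean ± SD as a black bar beside each group. The vertical axis of Vwa8 covers a wider range than those of the other genes, which all cover the same range; the groups are apart for Vwa8, Afg3l2, Yme1l1, Lonp1, Clpx and Bcs1l and overlap for the other 4.

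Among the subunits of the m-AAA protease, an inner membrane complex that faces the matrix, only Afg3l2 passed. Afg3l2, which can form the complex alone and whose human counterpart is mutated in a spinocerebellar ataxia, read 7.93, 7.87, 7.87 and 7.65 on the wild-type arrays and 8.16, 8.18, 8.20 and 8.18 on the knockout arrays. The knockout values lay close together and above every wild-type value, of which replicate 4 was the lowest. Afg3l2 rose by 0.35 ± 0.071 (SE, 4 arrays per group here and for all genes below; limma adjusted p = 0.00737), or 1.27-fold. Spg7 encodes paraplegin, which needs AFG3L2 to form its complex and whose human counterpart is mutated in a hereditary spastic paraplegia. It read 6.84, 6.82, 6.58 and 6.64 in wild-type and 6.65, 6.51, 6.60 and 6.53 in knockout cells, and the groups overlapped. Its log2 fold change of -0.15 ± 0.076 did not pass (limma adjusted p = 0.231, 95% interval -0.32 to 0.02). Afg3l1, an m-AAA subunit that is active in mice and a pseudogene in humans, read 7.08, 7.06, 6.96 and 7.02 in wild-type and 7.08, 6.98, 7.01 and 7.10 in knockout cells. These ranges nearly coincide, and the log2 fold change was 0.01 ± 0.058 (limma adjusted p = 0.924, 95% interval -0.12 to 0.14). Spg7 and Afg3l1 both lie on chromosome 8. Of their 10 nearest neighbours 2 and 3 fell and none rose, beside 10.4% of all genes in each direction. With the median of the 30 brighter genes to each side (-0.12 for both) subtracted, they stood at -0.03 and 0.14, and neither passed (limma adjusted p = 0.141 for Afg3l1 and higher for Spg7). Brighter here means a mean over all arrays above that of the median gene. Afg3l2, on chromosome 18, stood at 0.36 after the same step. Afg3l1 and Afg3l2 are paralogs, and how far their probe sets cross-hybridise was not tested.

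Yme1l1 encodes the i-AAA protease, which acts on the intermembrane space side of the inner membrane and cleaves the fusion protein OPA1. Its values were 8.94, 9.08, 9.04 and 9.08 in wild-type and 9.27, 9.32, 9.26 and 9.42 in knockout cells. Each knockout array was above each wild-type array, and the rise was 0.28 ± 0.062 (limma adjusted p = 0.0114), or 1.21-fold. Yme1l1 lies on chromosome 2, and the 30 brighter genes on each side of it had a median log2 fold change of 0.10. With this median subtracted from the knockout values the difference was 0.18 ± 0.062, which no longer passed (limma adjusted p = 0.0745).

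The matrix ATPases Lonp1 and Clpx moved in opposite directions. LONP1 degrades oxidised and unassembled matrix proteins, the mitochondrial DNA packaging factor TFAM among its substrates. Lonp1 read 8.57, 8.44, 8.52 and 8.52 in wild-type and 8.16, 8.29, 8.17 and 8.16 in knockout cells. All knockout values were below all wild-type values, with knockout replicate 2 nearest to them. The log2 fold change was -0.32 ± 0.058 (limma adjusted p = 0.00439), a 1.25-fold decrease, and -0.29 with the neighbour median subtracted. CLPX is the unfoldase that feeds proteins to the peptidase CLPP and also activates the first enzyme of heme synthesis. Clpx read 8.23, 8.39, 8.26 and 8.39 in wild-type and 8.78, 8.76, 8.78 and 8.87 in knockout cells. The groups were well apart, and Clpx rose by 0.48 ± 0.062 (limma adjusted p = 0.000672), or 1.39-fold. Clpx passed although none of its 10 nearest neighbours among measured genes did, beside 20.9% of all genes. After subtracting the median of the 30 brighter genes on each side, -0.09, Clpx stood at 0.57.

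Bcs1l encodes the translocase that inserts the Rieske iron-sulfur protein UQCRFS1 into respiratory complex III, and among these genes its rise was the largest. The wild-type arrays read 6.77, 6.90, 6.67 and 6.66 and the knockout arrays 7.33, 7.18, 7.44 and 7.35. No knockout value reached down to the wild-type range, and Bcs1l rose by 0.57 ± 0.081 (limma adjusted p = 0.00103), or 1.49-fold. Its neighbours on chromosome 1 moved with it. Of the 10 nearest measured genes 7 rose and none fell, beside 10.4% of all genes in each direction. Their median log2 fold change was 0.38. Those 7 were Ctdsp1, Vil1, Usp37, Cnot9, Rnf25, Stk36 and Cyp27a1, at 0.27 to 0.67, and they were named after their values were seen. With the median of the 30 brighter genes on each side (0.32) subtracted, Bcs1l stood at 0.26 ± 0.081 and just missed the threshold (limma adjusted p = 0.0559). Genome copy number was not measured in these samples.

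**Figure D2:**
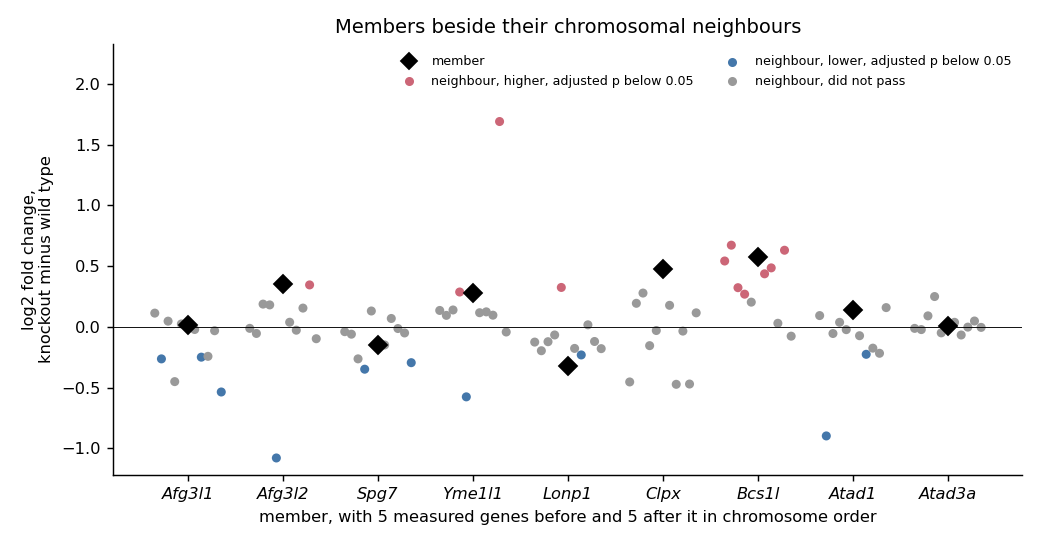
Log2 fold change, knockout minus wild type, of the 9 members other than Vwa8 (black diamonds) and of the 5 measured genes before and after each in chromosome order (dots, coloured by the limma call). Clpx stands above neighbours of which none passed, while Bcs1l at 0.57 lies among neighbours of which 7 of 10 rose.

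The remaining members act at membranes and did not pass. Atad1 encodes an outer membrane ATPase that extracts mislocalised tail-anchored proteins, and it was the brightest member. It read 10.94, 11.23, 11.21 and 11.14 in wild-type and 11.26, 11.21, 11.26 and 11.33 in knockout cells. The groups overlapped, wild-type replicate 1 was the lowest array, and the difference was 0.14 ± 0.075 (limma adjusted p = 0.265, 95% interval -0.03 to 0.31). Atad3a encodes an inner membrane ATPase linked to nucleoids and to contact sites between the mitochondrial membranes. It read 6.89, 6.69, 6.75 and 6.77 in wild-type and 6.81, 6.72, 6.86 and 6.73 in knockout cells. The ranges coincide, and the difference of 0.004 ± 0.064 had a 95% interval of -0.14 to 0.15 (limma adjusted p = 0.981).

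**Figure D3:**
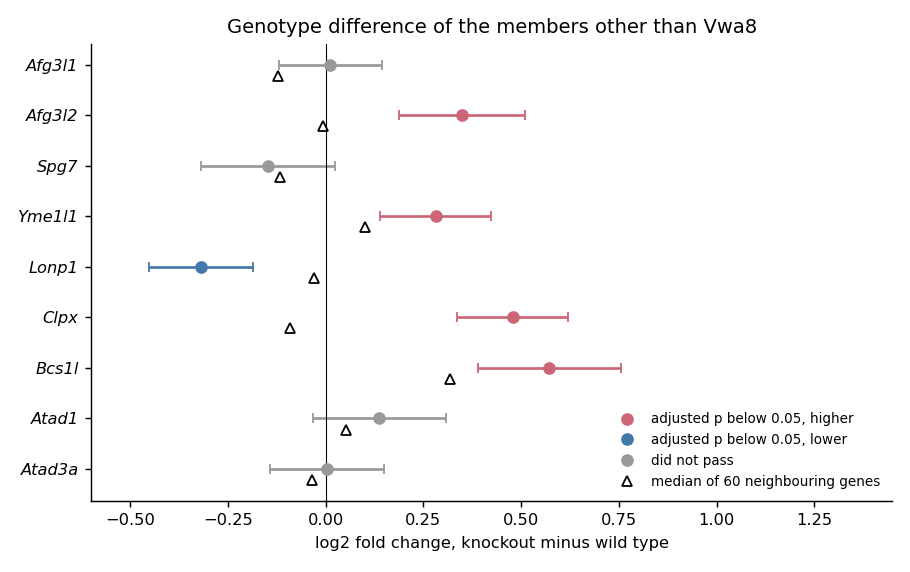
Log2 fold change, knockout minus wild type, of the 9 members other than Vwa8, with 95% intervals from limma (4 arrays per group), and the median log2 fold change of 30 brighter genes on either side of it (open triangles). Bcs1l at 0.57, Clpx at 0.48, Afg3l2 at 0.35 and Yme1l1 at 0.28 were higher and Lonp1 at -0.32 lower, and the triangle furthest from 0 is that of Bcs1l at 0.32.

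Whether genes whose proteins share a complex or a task changed unequally was tested on the difference of their log2 values within each array, in 7 pairs. Afg3l2 minus Spg7 was 1.11 ± 0.126 (SD, n = 4) in wild-type and 1.61 ± 0.071 (n = 4) in knockout cells, a change of 0.50. Afg3l1 minus Afg3l2 changed by -0.34 and Afg3l1 minus Spg7 by 0.16. Each of these m-AAA differences follows from the others, and neither Afg3l1 nor Spg7 passed on its own. Clpx rose relative to Clpp, its peptidase partner, by 0.40. Lonp1 minus Clpx went from 0.19 ± 0.130 to -0.60 ± 0.095, a change of -0.80 and the largest among the 7 pairs. As Lonp1 was lower and Clpx higher on every knockout array, this pair had to separate. Its test adds nothing to the results of each gene. In these 5 pairs the groups of arrays did not overlap, and each had an exact permutation p of 0.0286, two-sided, the smallest possible, and 0.0400 after Benjamini-Hochberg adjustment over the 7 pairs. Bcs1l minus Uqcrfs1, its client, changed by 0.46 and Yme1l1 minus Stoml2, a scaffold partner, by 0.21, and both missed (exact permutation p = 0.0571, adjusted p = 0.0571). With the neighbour median subtracted they changed by 0.10 and 0.11, and Afg3l1 minus Afg3l2 by -0.22, which still passed (exact permutation, adjusted p = 0.0400). With an array left out the exact permutation p also has a smallest possible value. The adjusted p of a pair at that value depends only on how many of the 7 pairs reach it. Without wild-type replicate 1 none of the 7 pairs passed. Afg3l2 minus Spg7 changed by 0.49, Afg3l1 minus Afg3l2 by -0.36 and Lonp1 minus Clpx by -0.75. These were still at the smallest possible value (exact permutation, adjusted p = 0.0667). Afg3l1 minus Spg7, at 0.14, and Clpx minus Clpp, at 0.39, no longer reached it (exact permutation, adjusted p = 0.0800). Afg3l1 minus Spg7 was also lost without wild-type replicate 2 (0.14), knockout replicate 2 (0.16) or knockout replicate 4 (0.13). Clpx minus Clpp was also lost without wild-type replicate 3 (0.38) or replicate 4 (0.40). Without each of these arrays the rest of the 5 pairs stood at the threshold of 0.05 itself, not clearly below it. Their exact permutation p was the smallest possible there too. Only without knockout replicate 1 or knockout replicate 3 did all 5 pairs stay below it (exact permutation, adjusted p = 0.0400).

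**Figure D4:**
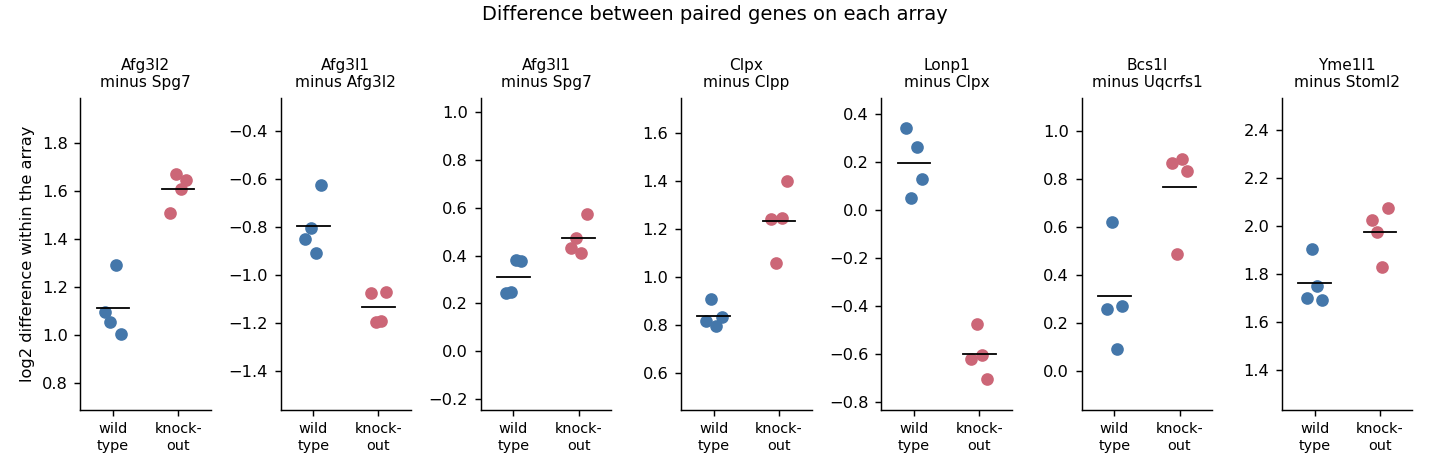
Difference between the log2 values of 2 genes within each array, for 7 pairs, with 4 wild-type (blue) and 4 knockout (red) arrays and the group mean as a line. All vertical axes cover the same range; Lonp1 minus Clpx moves furthest, from a mean of 0.19 to -0.60, and the last 2 pairs overlap between genotypes.

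Of 8 measured proteolytic partners, scaffold proteins and regulators of these ATPases, 1 rose and 1 fell, beside 20.9% of all genes that passed, 10.4% in each direction, and the median log2 fold change was 0.03. With the neighbour median subtracted none of the 8 passed, beside 20.2% of all genes. Maip1, which encodes a factor that binds the m-AAA protease and protects its calcium uniporter client, rose by 0.44 ± 0.073 (limma adjusted p = 0.00279). Maip1 lies on chromosome 1 among genes with a median of 0.36, and subtracting that median left 0.08 (limma adjusted p = 0.513). Parl, which encodes the rhomboid protease of the inner membrane, fell by 0.20 on the log2 scale (SE 0.059, limma adjusted p = 0.0400), and stood at -0.13 with the neighbour median subtracted, which did not pass (limma adjusted p = 0.177). Clpp stood at 0.08 ± 0.068, Oma1, the stress-activated protease that also cleaves OPA1, at 0.05 ± 0.063, and Phb2, of the prohibitin scaffold around the m-AAA protease, at -0.07 ± 0.059. Phb1 was not analysed here.

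Other mitochondrial AAA+ genes and peptidases were few. Clpb, the AAA+ disaggregase, stood at 0.31 ± 0.097 and just missed the threshold (limma adjusted p = 0.0511), and with the neighbour median subtracted it passed at 0.43 (limma adjusted p = 0.0138). Afg1l stood at -0.03 ± 0.058. Of 7 measured peptidases that cut targeting or signal sequences or degrade peptides, 2 rose and none fell, beside 10.4% of all genes in each direction, with a median of 0.05. They were Pmpca, a subunit of the processing peptidase that removes matrix targeting sequences, at 0.38 ± 0.067 (limma adjusted p = 0.00376), and Immp1l, of the inner membrane peptidase, at 0.41 ± 0.058 (limma adjusted p = 0.000995). Both lie on chromosome 2, and both still passed with the neighbour median subtracted, at 0.26 and 0.23.

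Of 16 measured substrates and clients, 3 rose and 2 fell, beside 10.4% of all genes in each direction, with a median of 0.04. Pink1, the kinase that marks damaged mitochondria, rose by 0.40 ± 0.075 (limma adjusted p = 0.00501), Gosr1, a Golgi tail-anchored protein whose yeast counterpart is extracted from mitochondria by the ATAD1 homologue, by 0.30 ± 0.068 and Slc25a39, a mitochondrial glutathione carrier, by 0.22 ± 0.057. Mcu, the pore of the calcium uniporter, fell by 0.34 on the log2 scale (limma adjusted p = 0.0171), and Prelid1, a lipid transfer protein degraded by the i-AAA protease, fell by 0.31 (limma adjusted p = 0.0375). Opa1 stood at -0.06 ± 0.057, Uqcrfs1 at 0.11 ± 0.082 and Tfam at 0.08 ± 0.10, so the transcripts of the best known substrates of YME1L1, BCS1L and LONP1 did not pass. Of the 5 that passed, only Pink1 still did with the neighbour median subtracted, at 0.42, so that 1 of 16 passed beside 20.2% of all genes.

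Mitochondrial chaperones and stress factors, the genes best known as markers of protein stress in mitochondria, gave 3 rises and 1 fall among 8, beside 10.4% of all genes in each direction, with a median of 0.17. Hspd1 and Hspe1, which encode the matrix chaperonin and its lid, rose by 0.45 ± 0.061 and 0.41 ± 0.068 (limma adjusted p = 0.000829 and 0.00248). Both lie on chromosome 1 among genes with medians of 0.33 and 0.36, and with these subtracted they stood at 0.12 and 0.05 and did not pass (limma adjusted p = 0.229 and 0.637). Atf5, a transcription factor of the mitochondrial stress response, rose by 0.44 ± 0.074 (limma adjusted p = 0.00298) while Ddit3, which encodes CHOP, fell by 0.36 on the log2 scale (limma adjusted p = 0.00671). Those calls held with the neighbour median subtracted, at 0.49 and -0.25. Atf4 stood at 0.20 ± 0.069 (limma adjusted p = 0.0744) and passed at 0.27 with the neighbour median subtracted (limma adjusted p = 0.0265), and Hspa9, the matrix chaperone of protein import, at 0.14 ± 0.050 (limma adjusted p = 0.0917).

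AAA+ genes outside mitochondria changed in 10 of 33 measured cases, 6 higher and 4 lower, beside 10.4% of all genes in each direction, with a median of 0.01. With the neighbour median subtracted 1 was higher and 3 were lower, beside 20.2% of all genes that passed. Atad2, a chromatin-binding protein, stood at -1.31 ± 0.099, Trip13, of the mitotic checkpoint, at -1.02 ± 0.104 and Fignl1, of DNA repair by recombination, at -0.99 ± 0.174, each with a limma adjusted p of 0.00344 or less. Fign, which encodes a microtubule-severing protein, stood at 0.67 ± 0.109 (limma adjusted p = 0.00221), with group means of 3.66 and 4.34, near or below the array medians of 4.27 to 4.33. These 4 calls held with the neighbour median subtracted. The other 6 did not: Tor1a, Tor2a, Lonp2, Vps4a and Psmc3, at 0.21 to 0.38, stood at 0.06 to 0.23 after it, and Ruvbl1 went from -0.19 to -0.17. Among them Lonp2, the peroxisomal counterpart of Lonp1, stood at 0.26 ± 0.068 and at 0.08 after it (limma adjusted p = 0.479). Mdn1 stood at 0.04 ± 0.053. Of 8 other genes named for the VWA domain, none rose and 1 fell, Vwa5a at -0.31 ± 0.063 (limma adjusted p = 0.00810), and the other 7 had wild-type means between 3.30 and 4.59, near or below the array median.

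**Figure D5:**
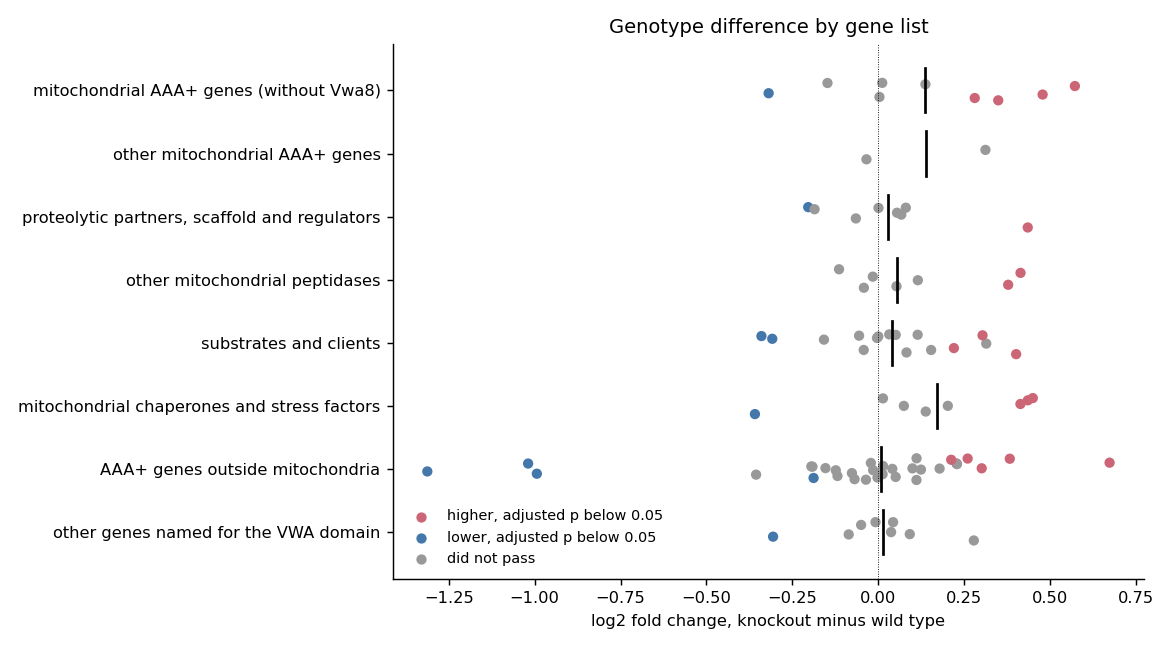
Log2 fold change, knockout minus wild type, of each measured gene in 8 lists (Vwa8 left out), coloured by the limma call, with the list median as a black line. The list medians lie between 0.01 and 0.17, and the falls beyond -0.9 are those of Atad2, Trip13 and Fignl1.

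Over the 7 lists together, 15 of 82 measured genes rose and 9 fell, or 29.3% in all, beside 20.9% of all genes. With the neighbour median subtracted 7 rose and 5 fell, or 14.6%, beside 20.2% of all genes. The main fit called 2314 of all genes higher and 2312 lower. The intensity trend with robust variances gave 20 higher and 14 lower in the lists, beside 2773 and 2800 of all genes. Leaving out the dimmest 50% of probe sets gave 19 and 14, beside 2707 and 2742 of the genes kept. Without knockout replicate 1 the counts were 10 higher and 5 lower, beside 1973 and 1885 of all genes.

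The labelled cell type was checked against its markers. Array values correlated with r of 0.985 to 0.989 within genotypes and 0.978 to 0.984 across them. All 6 measured hepatocyte markers passed as higher in the knockout, beside 10.4% of all genes. Their wild-type means ran from 5.70 for Serpina1a to 12.84 for Alb and their knockout means from 6.47 to 13.07. All but Ttr still passed with the neighbour median subtracted, beside 20.2% of all genes in either direction. Of 4 cholangiocyte markers, Sox9 at 10.07 and Krt19 at 8.66 were bright in wild-type cells, Epcam was dim at 2.40, and Krt7 fell by 0.52 on the log2 scale. The 14 markers of macrophages, endothelial cells, stellate cells and lymphocytes had group means between 2.73 and 5.58. None passed, beside 20.9% of all genes, although Stab2 did at 0.34 with the neighbour median subtracted. The part of the hepatocyte and cholangiocyte markers' differences in the results above was not tested.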

How the data were processed

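The values are those the authors deposited, on a log2 scale read from the values themselves (0.44 to 13.55), 1 per probe set and array; how they were background-corrected, normalized and summarised is not stated in the labels. Of 41345 probe sets, 23521 had 1 gene symbol, 1814 several and 16010 none listed. A gene was represented by its probe set with the highest mean over the 8 arrays. Genotypes were compared in limma 3.58.1 (R 4.3.3) with genotype as the only term, all 8 arrays in the fit, and two-sided p-values adjusted by Benjamini-Hochberg over 22180 genes, with a threshold of 0.05. Gene pairs were compared by exact permutation of the arrays. Gene order came from RefSeq's GRCm38.p6 table, matched for 21994 genes. Named were the 10 members, up to 6 members of each list with the smallest adjusted p, some partners whatever their values, and the 5 genes most like Vwa8. Of the AAA+ genes outside mitochondria, all 10 that passed were named, which is more than 6. The neighbours of Vwa8, which the rule also allows, are not named, and those of Bcs1l were chosen after their values were seen. Members, lists and alternatives were chosen with earlier results of these data known. The alternatives were array weights, a replicate block, median centring, quantile normalization, robust variances with an intensity trend, filters on dim probe sets, averaging a gene's probe sets, subtraction of the neighbouring genes' median, and leaving out each array. The cultures are described as separate, with nothing more on their independence, and the 4 arrays per group limit the precision. Python 3.11.15 and matplotlib 3.10.9 served for tables and figures.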

Additional observations from a re-analysis of the deposited data

Results flagged for a closer look

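In 2 of 20 groups of 4 arrays (10 genes in 2 genotypes), 1 array lay far from the other 3 by Dixon's test, where chance gives about 1 in 20. The highest Lonp1 value among the knockout arrays, 8.29 in replicate 2, lay apart by 0.885 of the range of its group. Without that array the log2 fold change of Lonp1 was -0.35 in place of -0.32 and passed (limma adjusted p = 0.00614). The highest Clpx value among the knockout arrays, 8.87 in replicate 4, lay apart by 0.849 of the range. Without it Clpx stood at 0.46 in place of 0.48 and passed (limma adjusted p = 0.00280).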

How the results depend on the processing

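Over 17 alternatives Vwa8 stayed between -3.82 and -3.64 on the log2 scale, and Clpx (0.45 to 0.57), Afg3l2 (0.29 to 0.38) and Lonp1 (-0.35 to -0.29) passed in all 17. Bcs1l (0.26 to 0.62) and Yme1l1 (0.18 to 0.30) passed in 16 and missed with the neighbour median subtracted, which lowered the count of rising members from 4 to 2 and left 2 falling; the part of the chromosomal shift in these values was not tested beyond that. Atad1, Atad3a, Afg3l1 and Spg7 passed in none; Atad3a (-0.02 to 0.04) and Afg3l1 (-0.01 to 0.14) changed sign. Of the 82 partner and comparison genes, 15 rose and 9 fell, and 7 and 5 did with the neighbour median subtracted. The falls numbered 14 with an intensity trend and robust variances and 14 without the dimmest 50% of probe sets. They numbered 5 with the replicate block and 5 to 8 without each array. Falls over all genes fitted numbered 2800, 2742, 1827 and 1885 to 2017 in the same order, beside 2312 in the main fit. Same-numbered arrays of the 2 genotypes correlated in their deviations from the group means at -0.002 to 0.059, and differently numbered arrays at -0.061 to 0.041. Correlations this weak cannot show whether the numbers pair the cultures. The replicate block changed no call among the 10 members. Without each array the pair differences ran from 0.46 to 0.56 for Afg3l2 minus Spg7 and -0.37 to -0.28 for Afg3l1 minus Afg3l2. They ran from 0.13 to 0.18 for Afg3l1 minus Spg7 and 0.34 to 0.46 for Clpx minus Clpp. For Lonp1 minus Clpx they ran from -0.85 to -0.75. Calls of these 5 pairs were lost, or stood at the threshold itself, as given with the pairs above. With the neighbour median subtracted these 5 stood at 0.39, -0.22, 0.17, 0.44 and -0.86, all past the threshold. Dim signals near the array median could not be set against background, since no detection call or background signal was used here.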
